A study of Mus musculus with 8 samples.

Results

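The genes of fatty acid and cholesterol synthesis, with their regulators and the genes of milk-fat and adipocyte lipid storage, were followed in mammary tumors that arise in MMTV-PyMT mice. A list of 44 genes was set by name, and a gene counted as measured where a row of the array carried its symbol alone. This held for 42 of the 44, out of 22180 genes with such a row. Scd2 and Idi1 matched only rows with several symbols and were not analysed here, and Agpat6 was found under its current symbol Gpat4. The measured genes formed 6 arms, of which fatty acid synthesis had 12, sterol synthesis 11, SREBP regulation 5, triglyceride assembly 5, milk fat 4 and adipocyte lipid storage 5.

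Tumors came from 4 conditional knockout mice (cKO), which carried the MMTV-PyMT oncogene, floxed Mmp14 alleles and an MMTV-Cre transgene, and from 4 littermates with the oncogene and the floxed alleles but no Cre, called wild type by the submitters (WT). All were congenic FVB/NJ mice aged 3 to 4 months, and tumors from inguinal and thoracic glands were frozen whole. The MMTV promoter drives both transgenes mainly in the mammary epithelium, so the floxed alleles of other cell types are not the target, and the groups differ in Cre as well as in Mmp14. Each tumor gave 1 array of log2 signals.

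Fatty acids are built in the cytosol from acetyl-CoA by acetyl-CoA carboxylase and fatty acid synthase, then elongated and desaturated. Cholesterol is built from the same precursor through mevalonate and squalene. SREBP transcription factors switch on both routes after the escort protein Scap carries them to the Golgi, and Insig proteins hold that step back when sterols are plentiful. SREBP2 acts mainly on sterol genes and SREBP1c, a product of Srebf1, mainly on lipogenic genes, and the nuclear receptor LXR raises Srebf1. The lactating mammary gland makes its own medium-chain fatty acids for milk, a step that needs the thioesterase Olah, while adipocytes store triglyceride under perilipin coats.

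The promoters below are shown because Cyp51 and Insig1 had the largest differences towards cKO among the measured genes, Hmgcs1 is the entry enzyme of the sterol route, and Olah had the largest difference in the other direction. They are the 250 bases before the RefSeq start on mouse GRCm38.p6, printed 5′ to 3′ on the gene's strand. Capitals mark matches, on either strand, to the SREBP-type motif TCACNNCA, the CCAAT box (also read as ATTGG), the GC box GGGCGG (also read as CCGCCC) and the E-box CACGTG. No capitals overlap between motifs in these windows.
Hmgcs1: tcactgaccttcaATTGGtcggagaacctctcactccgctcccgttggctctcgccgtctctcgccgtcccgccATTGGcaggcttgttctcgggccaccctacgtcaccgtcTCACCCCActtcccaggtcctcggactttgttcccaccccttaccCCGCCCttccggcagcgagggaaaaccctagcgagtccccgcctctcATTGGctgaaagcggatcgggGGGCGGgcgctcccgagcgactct
Cyp51: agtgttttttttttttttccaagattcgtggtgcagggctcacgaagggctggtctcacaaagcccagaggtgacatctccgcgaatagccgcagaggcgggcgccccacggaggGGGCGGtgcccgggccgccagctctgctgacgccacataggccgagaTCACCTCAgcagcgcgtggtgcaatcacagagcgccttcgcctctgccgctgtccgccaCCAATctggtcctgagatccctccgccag
Insig1: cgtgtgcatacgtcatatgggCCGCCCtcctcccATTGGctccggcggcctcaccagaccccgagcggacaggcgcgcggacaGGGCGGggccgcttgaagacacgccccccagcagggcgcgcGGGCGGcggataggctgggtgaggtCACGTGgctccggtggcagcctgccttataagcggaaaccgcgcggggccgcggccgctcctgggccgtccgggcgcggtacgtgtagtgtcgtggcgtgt
Olah: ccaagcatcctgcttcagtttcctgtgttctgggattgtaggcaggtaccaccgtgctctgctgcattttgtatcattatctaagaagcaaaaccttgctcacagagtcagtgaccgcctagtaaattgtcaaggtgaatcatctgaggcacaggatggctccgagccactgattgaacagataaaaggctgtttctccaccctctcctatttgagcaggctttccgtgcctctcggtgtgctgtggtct
The windows lie at chr13:119690101-119690350 on the plus strand (Hmgcs1), chr5:4104698-4104947 on the minus strand (Cyp51), chr5:28071162-28071411 on the plus strand (Insig1) and chr2:3366570-3366819 on the minus strand (Olah). The SREBP-type match lay 137 to 130 bases before the start in Hmgcs1 and 88 to 81 bases before it in Cyp51. The Insig1 and Olah windows held no such match. Of 32851 promoter windows of this length, 11.4% held TCACNNCA, 33.8% a CCAAT box, 32.7% the GC box and 6.02% the E-box. Among the 8 sterol synthesis genes with a window, 4 held TCACNNCA (Cyp51, Dhcr7, Sc5d and Hmgcs1), 8 a CCAAT box and 8 a GC box in at least 1 of their windows. For the 10 fatty acid synthesis genes with a window these counts were 1, 6 and 5. No window was available for the sterol genes Sqle, Fdps and Fdft1 or the fatty acid genes Scd1 and Fads1. A gene can have several windows, 10 in all for the sterol genes and 12 for the fatty acid genes, so these counts and the shares of single windows are not on the same footing. A match describes letters and shows no binding.

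Several facts concern the whole comparison. Mmp14 itself, the check of the labels, was at 7.72 ± 0.22 in cKO tumors and 9.12 ± 0.19 in WT tumors (log2 signal, SD, n = 4 each). The groups did not overlap, and the limma adjusted p was 0.0444. It was 0.0708 with arrays numbered 1 to 4 and 5 to 8 in the labels as blocks, and 0.354 with replicate numbers as blocks. Where the Mmp14 probes lie relative to the floxed exons is unknown here, so the remaining signal does not measure the deletion. Array medians lay between 3.64 and 3.71, and no detection call was used here, so a row near that level was not shown to be above background. With limma over 23521 rows and Benjamini-Hochberg adjustment, 0.0085% of rows (2 rows) passed an adjusted p of 0.05. At an unadjusted p below 0.05 there were 9.68% of rows, 5.54% higher and 4.14% lower in cKO. In whole tumors, fewer cells of a type and less RNA per cell cannot be told apart.

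Of the 42 lipid genes none passed the adjusted threshold in limma, the lowest adjusted p being 0.196, and every difference below is given as a value and not as a call. At an unadjusted p below 0.05 there were 10 genes, or 23.8%, of which 4 were higher in cKO (9.52%) and 6 lower (14.3%). Most of the 42 were bright, with 37 at a mean of at least 5, and among all rows at that level 14.7% had such a p, 8.11% higher and 6.61% lower. Acacb and Olah, both among the 10, were not bright. In a limma fit limited to bright rows, 8 of the 37 genes had such a p, 4 higher and 4 lower. In that fit 1354 of all 10186 bright rows had one. The count of 10 was 5 without WT 1 and 6 without cKO 3. Of all 23521 rows, 1641 had such a p without WT 1 and 2165 without cKO 3, against 2277 with all tumors. The values of 4 genes did not overlap between the groups (9.52%, against 5.42% of all rows). Among bright rows the share was 7.51%, which does not apply to Olah, a dim row among the 4. Sqle lay above in all cKO tumors, a pattern of 3.68% of all rows and 4.96% of bright rows. Acaca, Olah and Xdh lay below in all of them, a pattern of 1.73% of all rows. For the bright genes Acaca and Xdh the share among bright rows was 2.55%. For each of these 4 the exact two-sided permutation p was 0.0286, the smallest that 4 tumors against 4 allow.

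**Figure D1:**
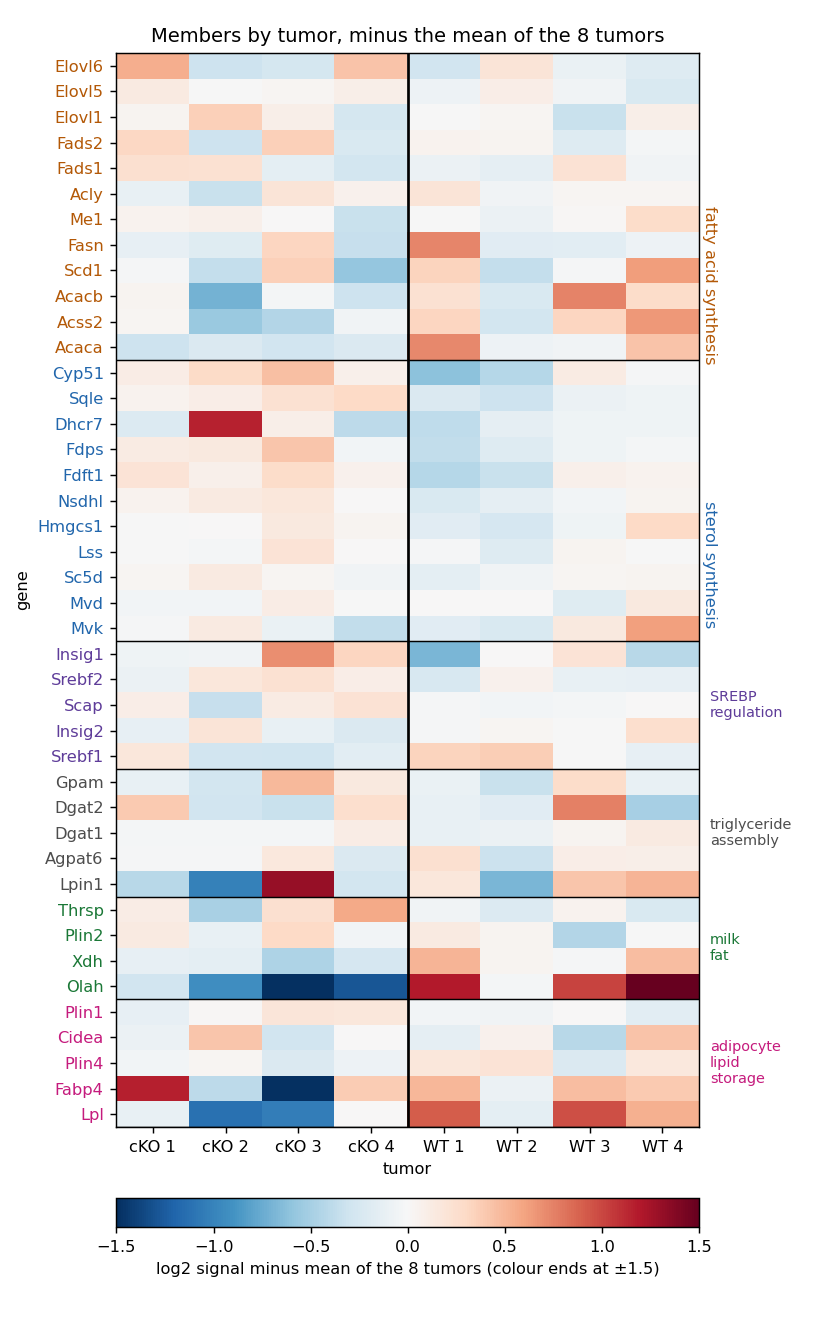
Heat map of the 42 measured genes (vertical axis, coloured by arm) in the 8 tumors (horizontal axis, cKO left and WT right), as log2 signal minus the gene's mean over the 8 tumors. Sterol synthesis genes run towards red in cKO 2 and cKO 3 and towards blue in WT 1 and WT 2, and are mixed in the other tumors. Olah and Lpl run mostly towards blue in cKO tumors and towards red in most WT tumors. Acaca runs towards blue in cKO tumors and towards red in WT 1 and WT 4 only.

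In the sterol synthesis arm, 10 of 11 genes were higher in cKO tumors, and 4 of them had an unadjusted limma p below 0.05. Such a p with a higher cKO mean held for 5.54% of all rows and 8.11% of bright rows. The arm's median difference was 0.18 (log2). Over all tested rows 56.5% of differences were above 0 and the median was 0.02, and over bright rows 51.6% and 0.01. The differences were small, at most 0.46, and the arm's adjusted p lay between 0.305 and 0.983. The median was 0.27 among arrays numbered 1 to 4 in the labels and 0.08 among arrays 5 to 8, each with a pair of tumors per group. With any 1 tumor left out it lay between 0.11 (without cKO 2) and 0.22 (without WT 4).

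Sqle, squalene epoxidase, which makes the first oxygenated sterol precursor, separated the groups. It had log2 signals of 8.05, 8.09, 8.22 and 8.29 in cKO tumors 1 to 4, against 7.77, 7.67, 7.90 and 7.93 in WT tumors 1 to 4. The lowest cKO tumor lay above the highest WT tumor, and the difference was 0.34 (SE 0.09, limma adjusted p 0.305). Arrays 1 to 4 alone gave 0.35 and arrays 5 to 8 alone gave 0.34.

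Cyp51, the lanosterol demethylase whose promoter is shown above, had 7.35, 7.53, 7.68 and 7.32 in cKO tumors, against 6.63, 6.81, 7.37 and 7.23 in WT tumors. WT 3 reached into the cKO range, and WT 1 and WT 2 were far below it. The difference of 0.46 (SE 0.17, adjusted p 0.447) came to 0.72 on arrays 1 to 4 and to 0.21 on arrays 5 to 8.

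Fdps, which makes farnesyl diphosphate, had 7.60, 7.62, 7.89 and 7.43 in cKO tumors, against 7.10, 7.28, 7.41 and 7.44 in WT tumors. Only cKO 4 and WT 4 crossed, with nearly equal values, and the difference was 0.32 (SE 0.12, adjusted p 0.446). Fdft1, squalene synthase, differed by 0.31 (SE 0.13, adjusted p 0.497), with 8.84 ± 0.10 in cKO tumors and 8.53 ± 0.26 in WT tumors (SD, n = 4 each).

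Hmgcs1, the HMG-CoA synthase that opens the route and whose promoter holds an SREBP-type match, differed little. It had 8.74, 8.76, 8.90 and 8.79 in cKO tumors, against 8.59, 8.51, 8.69 and 9.05 in WT tumors. The highest value of the 8 was that of WT 4, and the difference was 0.09 (95% interval −0.18 to 0.36).

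The remaining sterol enzymes were spread around that value. The sterol dehydrogenase Nsdhl stood at 0.18, the lanosterol synthase Lss at 0.09, the desaturase Sc5d at 0.07 and the mevalonate diphosphate decarboxylase Mvd at 0.01. Mvk, mevalonate kinase, was the gene in the arm that was lower in cKO, at −0.18. Dhcr7, which makes cholesterol in its last step, stood at 0.32, but this rested on cKO 2 at 8.40, with the other cKO tumors between 6.85 and 7.33 and WT tumors between 6.86 and 7.18. Without cKO 2 the Dhcr7 difference was −0.0064.

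Within each group the arm's level varied by tumor. In cKO 3, 10 of the 11 genes lay above their own mean over the 8 tumors and 5 reached their highest value. In cKO 2 the count above the mean was 9, and in cKO 1 and cKO 4 it was 6. Among WT tumors it was 1 in WT 1, 1 in WT 2, 5 in WT 3 and 6 in WT 4. WT 1 held the lowest value for 5 genes and WT 2 for 3.

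**Figure D2:**
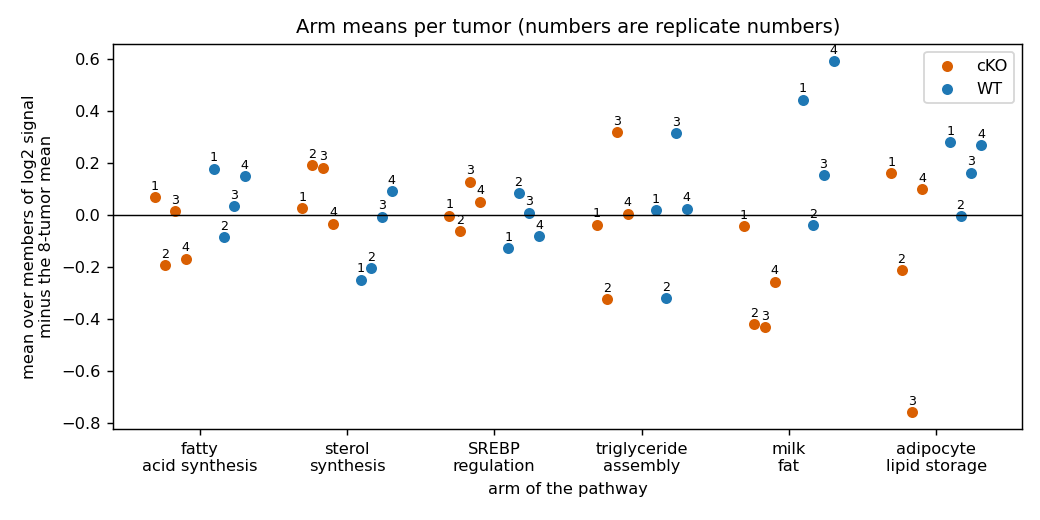
Mean over the genes of an arm of log2 signal minus each gene's 8-tumor mean (vertical axis) for the 6 arms (horizontal axis), 1 point per tumor with its replicate number, cKO left of WT. The sterol arm runs from −0.03 to 0.19 in cKO tumors and from −0.25 to 0.09 in WT tumors, and the groups meet in every arm but milk fat, where the nearest tumors differ by under 0.01.

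Genes of proliferating, immune and stromal cells were set beside the sterol arm. All 7 measured cell cycle genes were higher in cKO, by a median of 0.70, with mean levels from 8.13 to 8.41 in cKO tumors and from 7.37 to 7.58 in WT tumors. None of the 7 passed the adjusted threshold (lowest adjusted p 0.0795). Of 8 macrophage markers 7 were higher, by a median of 0.40, with mean levels from 6.67 to 7.07 in cKO tumors and from 6.28 to 6.70 in WT tumors. List means were also taken, each gene against its own mean over the 8 tumors. In cKO 4, where the sterol arm was lowest among cKO tumors (−0.03), the cell cycle (0.54) and macrophage (0.40) means were highest. In WT 1, where the sterol arm was lowest of the 8 tumors (−0.25), the cell cycle mean was lowest too (−0.50). The macrophage mean in WT 1 was 0.03.

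Stromal markers ran against the sterol arm in some tumors and not in others. In cKO 2 and cKO 3, where the sterol arm was highest, the fibroblast mean was −0.77 and −1.88 and the endothelial mean −0.54 and −0.59. In WT 1 and WT 2, where it was lowest, the fibroblast mean was 0.58 and 0.74 and the endothelial mean 0.31 and 0.22. In WT 4 the sterol mean was 0.09, the fibroblast mean 0.15 and the endothelial mean −0.13. In cKO 1 these means were 0.03, 0.08 and 0.14. They were −0.03, 0.58 and 0.32 in cKO 4 and −0.0060, 0.52 and 0.27 in WT 3. The part of any of these lists in the sterol values was not tested.

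Among the 5 regulators, Insig1, Srebf2 and Scap stood higher in cKO and Srebf1 and Insig2 lower, with no gene at an unadjusted p below 0.05. Insig1, which is itself a target of SREBP and blocks it, had 8.23, 8.24, 8.98 and 8.61 in cKO tumors, against 7.60, 8.29, 8.49 and 7.87 in WT tumors. The groups overlapped through WT 2 and WT 3, and the difference was 0.45 (SE 0.23, adjusted p 0.569).

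Srebf2, which encodes SREBP2, had 7.71, 7.97, 8.03 and 7.90 in cKO tumors, against 7.56, 7.86, 7.69 and 7.68 in WT tumors. Only WT 2 lay above the lowest cKO tumor, and the difference was 0.21 (SE 0.10, adjusted p 0.551). Srebf1, whose row does not tell its isoforms apart, had 9.27, 8.81, 8.80 and 8.94 in cKO tumors, against 9.43, 9.47, 9.10 and 8.98 in WT tumors. Here cKO 1 lay within the WT range and the other cKO tumors below it, with a difference of −0.29 (SE 0.15, adjusted p 0.576).

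Scap stood at 0.04 and Insig2, the second retention protein, at −0.13. In Scap the WT tumors were nearly alike (7.51 ± 0.02), while cKO 2 was at 7.19 and the other cKO tumors between 7.63 and 7.75 (SD, n = 4). A second Scap row was dim in all tumors, at 2.74 to 3.09, and differed by −0.02. The arm's median of 0.04 was 0.17 without cKO 2 and −0.02 without cKO 4.

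Other genes of sterol sensing and uptake were counted from a list of the pathway, with 13 measured, 7 higher and 6 lower in cKO, and none past the adjusted threshold. Mylip, an LXR target that marks lipoprotein receptors for breakdown, had 8.86, 8.38, 8.48 and 8.26 in cKO tumors, against 9.41, 9.01, 9.58 and 9.01 in WT tumors. All cKO tumors lay below all WT tumors, a pattern of 1.73% of all rows and 2.55% of bright rows. The Mylip difference was −0.76 (SE 0.17, adjusted p 0.208). Stard4, a sterol carrier regulated by SREBP2, had 5.66, 5.78, 5.56 and 5.65 in cKO tumors, against 5.03, 5.49, 5.42 and 5.33 in WT tumors. These groups did not overlap either, with a difference of 0.35 (SE 0.11, adjusted p 0.379). All cKO tumors lay above all WT tumors in 3.68% of all rows and 4.96% of bright rows. Of the 13 genes, 2 had all cKO tumors above and 1 had all below. Mylip and Stard4 were named for the 2 smallest p of the list. The cholesterol exporters Abcg1 and Abca1, also LXR targets and named after their values were seen, stood at −0.41 (SE 0.19) and −0.19 (SE 0.19). The median over the 13 genes was 0.02, and the part of LXR in these values was not tested.

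Of the sterol synthesis genes outside the 44, 6 of 8 were higher, with a median of 0.10. That median was 0.23 on arrays 1 to 4 and −0.06 on arrays 5 to 8. Hsd17b7, which reduces a keto intermediate of the route, stood at 0.28 (SE 0.12, adjusted p 0.495). Lbr, a sterol reductase of the nuclear envelope, was at 0.19 and the methylsterol oxidase Msmo1 at −0.13.

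In fatty acid synthesis 7 of 12 genes were lower in cKO with a median of −0.10 (43.5% of all rows and 48.4% of bright rows were lower). Those at an unadjusted limma p below 0.05, all lower, were the acetyl-CoA carboxylases Acaca and Acacb and the acetyl-CoA synthetase Acss2. Such a p with a lower cKO mean held for 4.14% of all rows and 6.61% of bright rows. The other 9 genes of the arm stood between −0.30 and 0.19. The arm's median was −0.11 among arrays 1 to 4 and −0.13 among arrays 5 to 8, and it was −0.02 without WT 1 and −0.14 without cKO 3. Epithelial markers ran with it in some tumors and not in others. The arm's mean was lowest in cKO 2, at −0.19, and highest in WT 1 and WT 4, at 0.18 and 0.15. In those tumors the mean of the secretory epithelium markers was −1.47 in cKO 2, 0.77 in WT 1 and 1.00 in WT 4. The luminal mean was 0.13 in cKO 2, 0.19 in WT 1 and 0.54 in WT 4. The secretory mean was 0.03 in cKO 4 and 0.36 in WT 2, where the arm's mean was −0.17 and −0.09. In cKO 3 the arm's mean was 0.02, with a secretory mean of −0.51 and a luminal mean of −0.33. The part of these markers in the fatty acid values was not tested.

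Acaca, the cytosolic carboxylase that makes malonyl-CoA for synthesis, had 7.19, 7.27, 7.21 and 7.28 in cKO tumors, against 8.21, 7.42, 7.44 and 7.93 in WT tumors. The cKO tumors lay within 0.1 of each other and below all WT tumors, of which WT 1 and WT 4 were high. The difference was −0.51 (SE 0.17, adjusted p 0.402), so that cKO tumors had 70.0% of the WT signal (95% interval 53.6% to 91.5%). Without WT 1 the Acaca difference was −0.36.

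Acss2, which activates free acetate, had 6.55, 5.97, 6.08 and 6.46 in cKO tumors, against 6.85, 6.25, 6.84 and 7.17 in WT tumors. The groups overlapped through WT 2, and the difference was −0.51 (SE 0.20, adjusted p 0.481). Acacb, the carboxylase of the mitochondrial surface that restrains fatty acid oxidation, had 4.51, 3.76, 4.44 and 4.16 in cKO tumors, against 4.70, 4.24, 5.22 and 4.74 in WT tumors. Its difference was also −0.51 (SE 0.22, adjusted p 0.512), in a row not far above the array medians.

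Fasn, the fatty acid synthase, had 8.91, 8.85, 9.36 and 8.69 in cKO tumors, against 9.77, 8.86, 8.88 and 8.95 in WT tumors. WT 1 stood apart and the other WT tumors lay inside the cKO range. The difference was −0.16 (95% interval −0.66 to 0.34), and without WT 1 it was 0.06.

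Scd1, the desaturase that makes oleate, had 10.61, 10.27, 10.98 and 10.05 in cKO tumors, against 10.96, 10.27, 10.60 and 11.25 in WT tumors, with ranges that overlapped widely and a difference of −0.30 (SE 0.25, adjusted p 0.738). Elovl6, which lengthens palmitate to stearate, had 9.82, 8.97, 9.01 and 9.70 in cKO tumors, against 8.99, 9.46, 9.18 and 9.08 in WT tumors. In Elovl6 cKO 1 and cKO 4 were the highest and cKO 2 the lowest of all 8, and the difference was 0.19 (SE 0.21).

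The citrate lyase Acly stood at −0.09 and the malic enzyme Me1, which supplies reducing power, at −0.10. For the elongases Elovl1 and Elovl5 the differences were 0.12 each. The desaturases of polyunsaturated fatty acids stood at 0.02 (Fads1) and 0.07 (Fads2). Their 95% intervals, with Acly and Me1, all held 0 and reached no further than 0.44 in either direction.

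Of 22 other genes of fatty acid synthesis 10 were higher and 12 lower in cKO, with a median of −0.0058 and none past the adjusted threshold. Tecr, the reductase of the elongation cycle, stood at 0.31 (SE 0.12, adjusted p 0.446), and the desaturase Scd4 at −0.27 (SE 0.11, adjusted p 0.497) with means of 3.05 in cKO and 3.32 in WT tumors, below the array medians. Slc25a1, the carrier that brings citrate out of mitochondria, was at 0.15.

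**Figure D3:**
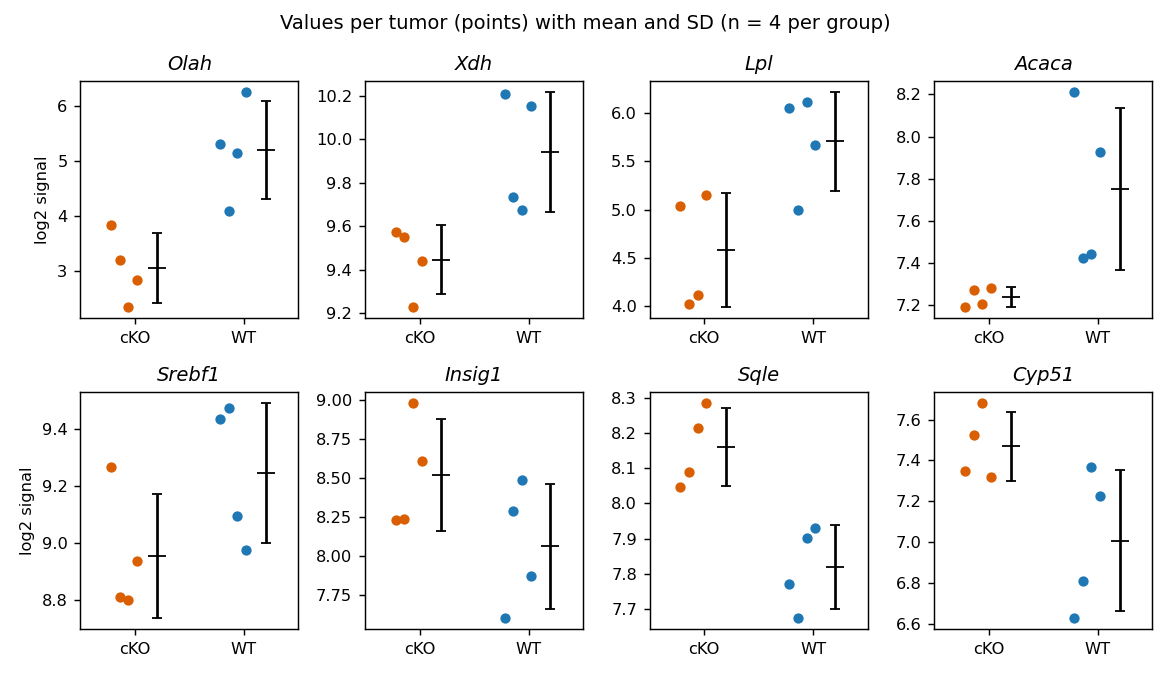
Log2 signal (vertical axis) of 8 genes in each tumor (points, replicates 1 to 4 from left to right) with mean and SD (n = 4 per group), cKO left and WT right. The groups do not meet for Olah, Xdh, Acaca and Sqle, while Lpl, Srebf1, Insig1 and Cyp51 overlap, and each panel has its own axis.

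The milk-fat arm held the largest difference of the whole list. Olah, the thioesterase that releases medium-chain fatty acids from the synthase, had 3.84, 3.19, 2.33 and 2.84 in cKO tumors, against 5.31, 4.09, 5.14 and 6.26 in WT tumors. All cKO tumors lay below all WT tumors. The cKO values lay at the array medians or below, apart from cKO 1 slightly above, so the signal in cKO was not shown to exceed background, and a fold of RNA cannot be stated. The log2 difference of signals was −2.15 (SE 0.45, adjusted p 0.196), at −1.18 on arrays 1 to 4 and −3.12 on arrays 5 to 8, and it ran from −2.52 to −1.80 with 1 tumor left out.

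Xdh, xanthine oxidoreductase, which anchors the milk fat globule membrane, had 9.57, 9.55, 9.23 and 9.44 in cKO tumors, against 10.21, 9.74, 9.68 and 10.15 in WT tumors. The highest cKO tumor lay below the lowest WT tumor by about 0.1, and the difference was −0.50 (SE 0.14, adjusted p 0.330), or 70.9% of the WT signal (95% interval 56.5% to 88.9%).

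The other members of the arm pointed the other way. Thrsp, a lipogenic factor of the mammary gland and liver, had 10.05, 9.45, 10.18 and 10.50 in cKO tumors, against 9.88, 9.73, 9.99 and 9.71 in WT tumors. cKO 1, cKO 3 and cKO 4 lay above all WT tumors and cKO 2 below all of them, with a difference of 0.21 (SE 0.20). Plin2, the coat protein of cytosolic lipid droplets, had 9.73, 9.49, 9.90 and 9.55 in cKO tumors, against 9.73, 9.64, 9.16 and 9.59 in WT tumors, and a difference of 0.14 (SE 0.14). The arm's median of −0.18 thus lay between genes of opposite sign, and without Olah, in rows with a mean of at least 5, it was 0.14. It was −0.10 without WT 1 and −0.29 without WT 3.

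Markers of secretory mammary epithelium stood beside Olah and Xdh. All 9 measured were lower in cKO, none past the adjusted threshold, by a median of −0.40, with mean levels from 6.67 to 8.17 in cKO tumors and from 8.09 to 9.14 in WT tumors. Of 8 luminal epithelial markers 7 were lower, by a median of −0.18, with mean levels from 9.40 to 9.86 in cKO tumors and from 9.57 to 10.3 in WT tumors. Their part in the milk-fat values was not tested.

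Among 10 other genes of the milk fat globule and its lipid supply 8 were lower and none passed the adjusted threshold. The membrane mucin Muc1 stood at −0.69 (SE 0.22, adjusted p 0.376) and the globule protein Mfge8 at −0.31 (SE 0.15). Btn1a1, the butyrophilin that pairs with Xdh at the globule surface and is also in the secretory marker list, had 7.17 ± 1.58 in cKO tumors and 7.50 ± 0.24 in WT tumors (SD, n = 4 each), with a difference of −0.33 (SE 0.65).

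Upstream regulators of mammary lipogenesis were lower in 10 of 12 cases, by a median of −0.17, again with none past the adjusted threshold. The prolactin-activated factor Stat5b stood at −0.27 (SE 0.12, adjusted p 0.507), and Med15, a Mediator subunit that SREBP binds, at −0.25 (SE 0.11, adjusted p 0.511).

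Triglyceride assembly did not separate the groups, and none of its 5 genes had an unadjusted p below 0.05 (medians of 0.01 for the arm and 0.02 for all rows). Its adjusted p ran from 0.859 to 0.993. The arm's median was −0.05 without cKO 1 and 0.10 without cKO 2. Gpam, the mitochondrial acyltransferase of the first step, had 6.90, 6.75, 7.51 and 7.17 in cKO tumors, against 6.92, 6.69, 7.30 and 6.91 in WT tumors, a difference of 0.13 (SE 0.18). Gpat4, the enzyme of the endoplasmic reticulum listed as Agpat6, had 8.17, 8.18, 8.35 and 7.97 in cKO tumors, against 8.43, 7.86, 8.29 and 8.27 in WT tumors, and the difference of Agpat6 was −0.04 (SE 0.13).

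Lpin1, the phosphatidate phosphatase, varied most in the arm. It had 7.62, 7.02, 9.35 and 7.76 in cKO tumors, against 8.21, 7.35, 8.45 and 8.54 in WT tumors. The highest and the lowest of all 8 tumors were both cKO, and the difference of −0.20 (95% interval −1.25 to 0.85) was −0.67 without cKO 3.

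Dgat2, an acyltransferase of the final step, had 5.23, 4.54, 4.49 and 5.09 in cKO tumors, against 4.71, 4.66, 5.58 and 4.33 in WT tumors, and a difference of 0.02 (SE 0.27). Dgat1, which catalyses the same reaction, differed by 0.01 (95% interval −0.18 to 0.20). In the arm means, replicate 3 was the highest and replicate 2 the lowest in both groups, at 0.32 and −0.32 in cKO tumors and at 0.31 and −0.32 in WT tumors, although the numbers do not pair tumors in the labels.

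Of 16 other genes of triglyceride assembly and lipolysis 5 were higher and 11 lower. Agpat5, a mitochondrial acyltransferase, stood at 0.53 (SE 0.17, adjusted p 0.379). Pnpla2, the lipase that starts triglyceride breakdown, stood at −0.43 (SE 0.15, adjusted p 0.422).

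The adipocyte arm was dim or variable. Plin1, the perilipin that defines the fat cell's droplet, had 3.52, 3.65, 3.81 and 3.80 in cKO tumors, against 3.60, 3.58, 3.64 and 3.47 in WT tumors, all near the array medians, with a difference of 0.12 (SE 0.09). Plin4 had 4.14, 4.22, 3.97 and 4.12 in cKO tumors, against 4.35, 4.39, 3.98 and 4.34 in WT tumors, and a difference of −0.16 (SE 0.11). In Plin4, WT 3 lay within the cKO range and the other WT tumors above it.

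Adipocyte markers outside the list were as low. The 10 measured had mean levels from 3.53 to 4.01 in cKO tumors and from 3.50 to 3.89 in WT tumors, with 6 higher and 4 lower in cKO. The adipokine gene Adipoq lay at 3.64, 3.45, 3.34 and 3.35 in cKO tumors and at 2.92, 3.35, 3.20 and 3.41 in WT tumors, at or below the array medians in every tumor.

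Lpl, lipoprotein lipase, which takes up fatty acids from blood lipoproteins, had 5.04, 4.02, 4.11 and 5.15 in cKO tumors, against 6.05, 4.99, 6.11 and 5.67 in WT tumors. The groups overlapped through WT 2 alone, and the difference was −1.13 (SE 0.33, adjusted p 0.327), at −0.99 on arrays 1 to 4 and −1.26 on arrays 5 to 8. A second, dimmer Lpl row, between 2.30 and 2.57 in all tumors, differed by −0.07, so that the Lpl difference rests on 1 row.

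Fabp4, a fatty acid carrier of adipocytes that endothelium and macrophages also express, had 7.54, 5.99, 3.96 and 6.76 in cKO tumors, against 6.88, 6.29, 6.84 and 6.77 in WT tumors. cKO 1 was the highest and cKO 3 the lowest of the 8 tumors. Its difference of −0.63 (SE 0.64) was 0.07 without cKO 3.

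Cidea, a droplet protein of brown fat and of the lactating gland, had 5.65, 6.15, 5.45 and 5.75 in cKO tumors, against 5.60, 5.81, 5.32 and 6.17 in WT tumors, and a difference of 0.02 (SE 0.20). The brown fat markers had mean levels from 3.67 to 4.36 in cKO tumors and from 3.59 to 3.97 in WT tumors, with 3 of 5 higher.

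Stromal and macrophage markers were set beside Lpl and Fabp4. The 8 fibroblast markers all had a lower mean in cKO tumors (median −1.14, none past the adjusted threshold), with mean levels from 5.68 to 8.13 in cKO tumors and from 7.71 to 8.29 in WT tumors. All 6 endothelial markers were lower, by a median of −0.30, with mean levels from 5.79 to 6.70 in cKO tumors and from 6.25 to 6.70 in WT tumors. Of 8 macrophage markers 7 were higher in cKO, by a median of 0.40. The fibroblast level was lowest in cKO 3, which had the lowest Fabp4 signal of the 8 tumors. It was highest in WT 2, which had the lowest Lpl and Fabp4 signals among WT tumors. The adipocyte arm's mean was lowest in cKO 3, at −0.76, and its median difference of −0.16 was 0.07 without that tumor. The part of the stroma or of macrophages in these values was not tested.

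**Figure D4:**
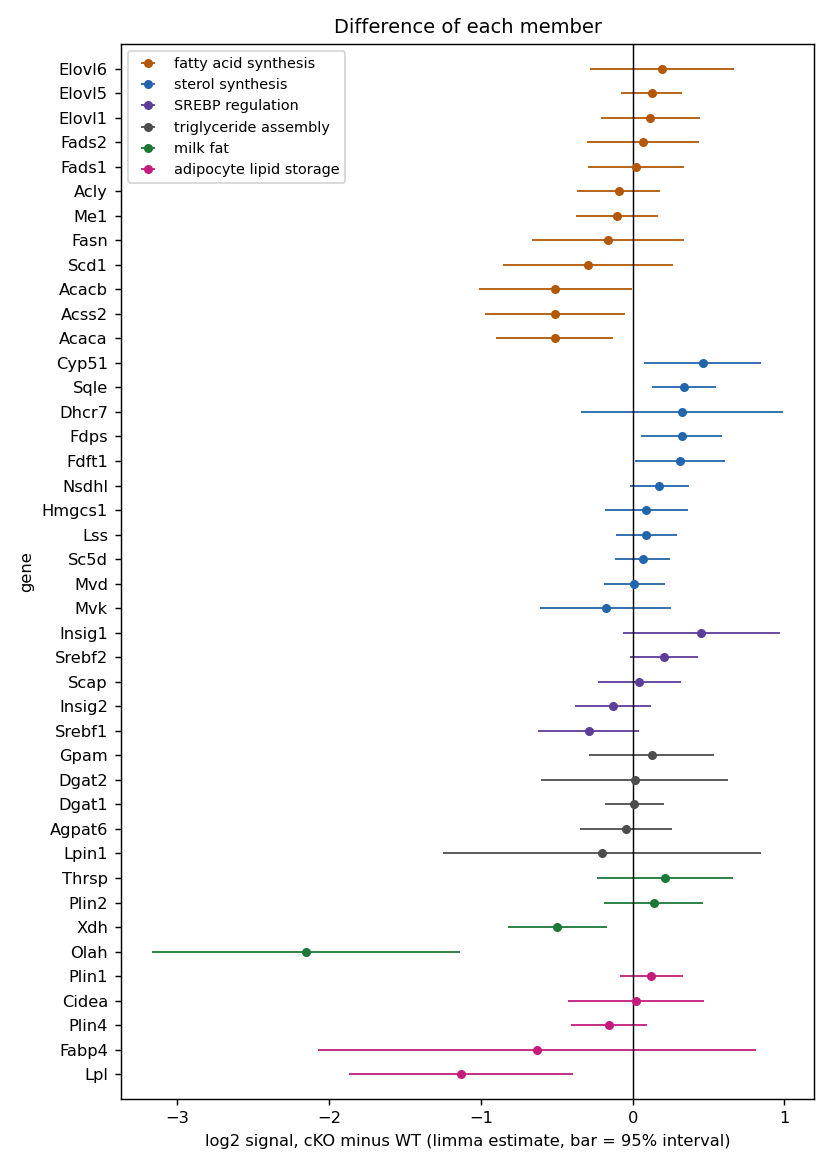
Log2 difference of signal, cKO minus WT, for the 42 measured genes (limma estimate with its 95% interval, unadjusted), grouped and coloured by arm. Intervals of Cyp51, Sqle, Fdps and Fdft1 lie above 0 and those of Acacb, Acss2, Acaca, Xdh, Olah and Lpl below it, and the others cross 0.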

How the data were processed

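The authors deposited a table of log2 signals, with a value for every row of the array in each tumor, from Affymetrix mouse arrays hybridised with biotinylated cDNA from 400 ng of total RNA per the labels' protocols. The submitters' processing notes name RMA (background correction, normalization between arrays, probe summary) and limma; the sources used here give no version, build or probe position.

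Of 41345 rows, 23521 had 1 symbol in the platform annotation, renamed by gene identifier through RefSeq where it matched (23328 rows). The row with the highest mean stood for a gene. Each column's tumor came from the labels. Any 2 arrays correlated with r of 0.976 to 0.989.

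The fit covered all 23521 rows and used limma 3.58.1 under R 4.3.3 (cKO minus WT, two-sided, no covariate, Benjamini-Hochberg over all rows, threshold 0.05); the fit was tested on simulated data. Arm medians are descriptions. The members and lists were chosen with earlier results of these data known. All 44 genes were to be named, with values per tumor for preset genes and the 3 smallest p of each arm, and for other pathway lists preset genes and the 2 smallest p each. Replicate numbers of the titles did not pair tumors. The alternatives were another quantile normalization, a median shift, a filter on dim rows, blocks, a variance trend, all rows, row means per gene, and each tumor left out. The number of arrays limits the precision.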

Additional observations from a re-analysis of the deposited data

Results flagged for a closer look

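In 84 sets of 4 tumors (42 genes in 2 groups), 4 had a tumor whose gap to the nearest other exceeded Dixon's 95% critical value, and chance alone flags about 1 in 20. Fasn was 9.77 in WT 1, against 8.86 to 8.95 in the other WT tumors. Lss was 7.87 in cKO 3, against 7.64 to 7.68 in the other cKO tumors. Dgat1 was 6.62 in cKO 4, against 6.48 to 6.49 in the other cKO tumors. Plin4 was 3.98 in WT 3, against 4.34 to 4.39 in the other WT tumors.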

How the results depend on the processing

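No lipid gene and no other pathway gene passed the adjusted threshold under any of the alternatives run, and no lipid gene changed sign except when a tumor was left out, when 1 to 6 of 42 did, none past the threshold. With 1 tumor left out, the lipid genes at an unadjusted p below 0.05 numbered 5 to 11. Of all 23521 rows, 1597 (without WT 4) to 2773 (without cKO 2) had such a p in these fits. The arm medians then ran from −0.14 to −0.02 (fatty acid synthesis), 0.11 to 0.22 (sterol synthesis) and −0.022 to 0.17 (SREBP regulation). For triglyceride assembly they ran from −0.05 to 0.10, for milk fat from −0.29 to −0.10 and for adipocyte storage from −0.25 to 0.07. Restricting to rows with a mean of at least 5, which leaves out Acacb, Dgat2, Olah, Plin1 and Plin4, gave medians of 0.14 for milk fat, −0.63 for adipocyte storage and −0.016 for triglyceride assembly. Replicate numbers did not pair the tumors, with correlations of same-numbered deviations from −0.245 to 0.294, and only the tumors numbered 3 correlated best with their own number. With the replicate block 11 lipid genes had an unadjusted p below 0.05, against 10 without it. Of all 23521 rows, 1898 had such a p with that block and 2277 without it. Mmp14, at −1.40 with either block, had a limma adjusted p of 0.354 with the replicate block. With arrays 1 to 4 and 5 to 8 as blocks it was 0.0708. With 1 tumor left out Mmp14 lay between −1.48 and −1.30. It then passed the threshold only without cKO 1 (0.0429) or cKO 3 (0.0459), with an adjusted p of 0.0582 to 0.211 without any of the others. The cause of these moves was not tested.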
